A study of Mus musculus with 9 samples.

Results

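The genes described here encode the subunits of the 5 complexes of oxidative phosphorylation that are made from nuclear DNA. They were taken from the gene symbols of the deposited count tables by name: Nduf genes of the A, B, C, S and V series for complex I, Sdha to Sdhd for complex II, Uqcr genes for complex III, Cox4 to Cox8 genes for complex IV and Atp5 genes for complex V. Pseudogene symbols and the Ndufaf assembly factors were left out. The rule used names only and no measured value, though the set was chosen with earlier results of these data known. It gave 84 of the 23420 genes in the tables, 37 in complex I, 4 in complex II, 8 in complex III, 18 in complex IV and 17 in complex V. A total of 77 held enough reads to be tested.

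Liver RNA was sequenced from 9 male wild-type C57BL/6 mice, 1 library per mouse, to see how the iron content of the diet affects the liver transcriptome. All mice were moved to AIN-93G, a purified soy-free feed, when 5 weeks old and ate it for 50 days, until the liver was harvested at 12 weeks. The low-iron feed held 2.5 mg iron per kg, the sufficient feed 37.5 mg per kg and the high-iron feed 1000 mg per kg, with 3 separate mice on each. Knockouts of hemojuvelin (Hjv), a regulator of iron uptake named in the protocol, are not analysed here. Each library carries the number in its title, and values are always listed in the order of libraries 1, 5 and 9 for low iron, 2, 6 and 10 for sufficient iron and 4, 8 and 12 for high iron. The labels record wild-type animals of 1 inbred strain, and C57BL/6 mice are known to carry a shortened form of the Cox7a2l protein.

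Oxidative phosphorylation takes place in the inner mitochondrial membrane. Complexes I and II pass electrons from NADH and succinate to ubiquinone, complex III passes them on to cytochrome c and complex IV to oxygen, while the protons pumped by complexes I, III and IV drive ATP synthesis in complex V. Electrons move through iron-sulfur clusters in complexes I, II and III and through haem in complexes III and IV. Complex II also holds a haem, and the chain is one of the main users of iron in the cell. Hepatocytes are rich in mitochondria, and a set of core subunits comes from mitochondrial DNA, whose transcripts are not analysed here.

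The libraries held 22 M to 33.8 M gene reads each (M for mega). Rn45s, the ribosomal RNA precursor, took 43.7% of them in low-iron library 1 and 40.5% in high-iron library 12, against 12.5% to 23.8% in the other 7 libraries, and Lars2, a gene for a tRNA synthetase of the mitochondrion, took 11.6% and 10.4% there, against 3.47% to 6.80% in the other 7. Levels are given as CPM, a gene's read count per M reads of library size after TMM scaling, a method that aligns the bulk of the genes between libraries. Summed hepatocyte markers (Alb, Apoa1, Ttr, Serpina1a, Cps1, Tat and Hnf4a) stood at 44126 to 68023 CPM, and summed skeletal muscle markers at 0.207 to 0.658 CPM, the pattern of liver with next to no muscle RNA. In bulk tissue, fewer cells of a type and less RNA per cell cannot be told apart.

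Promoters are shown for 6 of the genes as a description of sequence, and their part in the levels measured here was not tested. In textbook accounts nuclear respiratory factor 1 (NRF1), ETS factors such as GABP, and YY1 bind near the start of many of these genes. Windows from 250 bases before to 50 bases after each RefSeq start site (GRCm38.p6) were found for 66 of the 84 genes, 71 windows in all, and were searched on both strands for GCGCATGCG (NRF1), CCGGAAGT (ETS) and AAGATGGCG (YY1), 3 strings that do not contain each other. Shown are, per complex, the gene with the lowest unadjusted p on low against sufficient iron among those with a match, Sdhb for complex II, where none matched, and Ndufs3 as the like gene for ETS. Capitals mark the match, which in Uqcrc1 and Cox6a1 spans the NRF1 string on both strands.
Ndufa9, chr6:126849095-126849394, minus strand, YY1 string from 29 bases after the start: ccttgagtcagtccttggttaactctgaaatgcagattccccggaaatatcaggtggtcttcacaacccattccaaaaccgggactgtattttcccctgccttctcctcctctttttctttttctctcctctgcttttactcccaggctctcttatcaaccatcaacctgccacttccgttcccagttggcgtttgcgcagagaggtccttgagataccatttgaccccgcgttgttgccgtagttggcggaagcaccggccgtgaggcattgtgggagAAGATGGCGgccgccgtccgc
Ndufs3, chr2:90904672-90904971, minus strand, ETS string in the opposite orientation at the start: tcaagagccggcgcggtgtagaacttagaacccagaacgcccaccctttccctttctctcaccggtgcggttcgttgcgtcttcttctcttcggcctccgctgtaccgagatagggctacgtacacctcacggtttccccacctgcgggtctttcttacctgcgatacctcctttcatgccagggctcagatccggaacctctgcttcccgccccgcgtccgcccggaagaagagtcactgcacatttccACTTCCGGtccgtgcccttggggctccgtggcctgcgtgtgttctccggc
Sdhb, chr4:140961021-140961320, plus strand, none of the 3 strings: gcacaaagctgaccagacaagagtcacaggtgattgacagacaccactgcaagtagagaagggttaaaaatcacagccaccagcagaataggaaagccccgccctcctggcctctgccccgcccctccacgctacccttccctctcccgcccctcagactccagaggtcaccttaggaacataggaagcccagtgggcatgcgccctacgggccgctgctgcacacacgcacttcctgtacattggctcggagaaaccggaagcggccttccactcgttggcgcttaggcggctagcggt
Uqcrc1, chr9:108936398-108936697, plus strand, NRF1 string from 30 bases after the start: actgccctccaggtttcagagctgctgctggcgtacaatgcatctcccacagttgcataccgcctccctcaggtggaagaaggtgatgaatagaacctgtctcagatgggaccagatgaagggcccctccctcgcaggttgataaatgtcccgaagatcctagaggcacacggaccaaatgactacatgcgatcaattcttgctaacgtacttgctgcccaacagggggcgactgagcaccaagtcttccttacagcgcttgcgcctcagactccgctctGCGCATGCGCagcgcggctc
Cox6a1, chr5:115348909-115349208, minus strand, NRF1 string from 162 bases before the start: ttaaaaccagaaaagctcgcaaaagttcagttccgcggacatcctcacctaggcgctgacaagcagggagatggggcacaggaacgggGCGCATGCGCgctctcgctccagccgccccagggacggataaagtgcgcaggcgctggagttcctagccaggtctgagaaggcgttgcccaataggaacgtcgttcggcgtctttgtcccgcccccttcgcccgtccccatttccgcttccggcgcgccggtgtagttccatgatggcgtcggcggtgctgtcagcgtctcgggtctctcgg
Atp5j, chr16:84834927-84835226, minus strand, YY1 string from 88 bases before the start: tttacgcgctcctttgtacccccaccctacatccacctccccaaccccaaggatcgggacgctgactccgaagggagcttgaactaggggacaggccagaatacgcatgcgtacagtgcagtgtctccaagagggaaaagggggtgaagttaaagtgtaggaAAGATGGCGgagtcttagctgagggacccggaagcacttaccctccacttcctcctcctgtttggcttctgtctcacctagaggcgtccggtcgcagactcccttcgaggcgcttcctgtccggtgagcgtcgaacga

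At least 1 of the 3 strings stood in the window of 19 of the 66 genes, or 26.8% of their windows, against 6.69% of the 32851 windows of all genes in the table. The NRF1 string was in 11.3% of the subunit windows (Cox6a1, Uqcrc1, Uqcr11, Ndufa8, Ndufa11, Atp5g2, Atp5k and Atp5l) against 1.75% of all windows. The YY1 string was in 9.86% (Ndufa9, Ndufc1, Ndufs4, Ndufs6, Ndufs7, Atp5j and Atp5j2) against 1.4%, and the ETS string in 7.04% (Ndufs3, Uqcrh, Uqcr11, Cox8a and Atp5h) against 3.89%. These are exact letter matches and no measure of binding.

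Levels of different genes were compared per kb of transcript, with the mean over all 9 libraries. The median tested gene of complex I stood at 79.8 CPM per kb, that of complex II at 144, of complex III at 152, of complex IV at 199.9 and of complex V at 172. Atp5g3, 1 of 3 genes for the ring-forming c subunit of ATP synthase, was highest of all at 495 CPM per kb. In complex IV the highest was Cox6a1, the liver form of subunit VIa, at 384 CPM per kb, and in complex I it was Ndufa4, since reassigned to complex IV, at 366. Uqcr11, a small subunit of complex III, led its complex at 256 and Sdhd, a membrane anchor of complex II, at 158 CPM per kb. The lowest tested genes were Ndufa4l2 at 0.943, Cox7a1 at 2.71 and Atp5s at 2.75 CPM per kb, and Sdhc, the other membrane anchor of complex II, was lowest in its complex at 37.9.

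**Figure D1:**
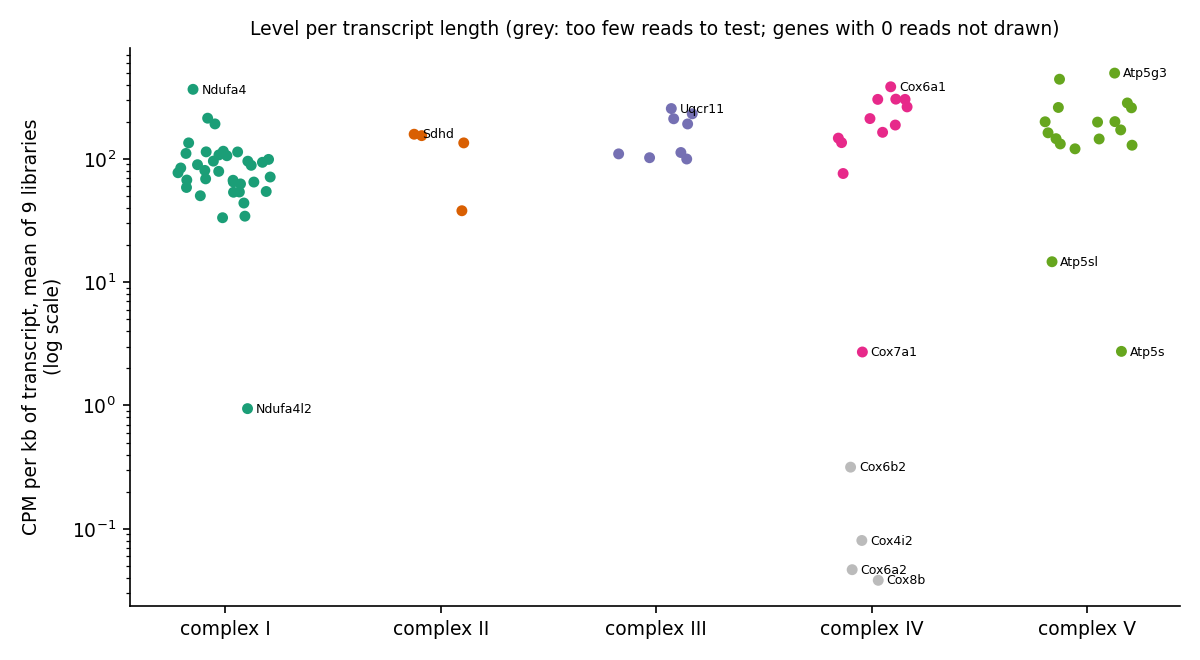
Level of each gene as CPM per kb of transcript (log axis, mean of 9 libraries), 1 point per gene, by complex. Most genes lie between 30 and 500 CPM per kb, the muscle and testis forms of complex IV lie lowest, and grey points had too few reads to test.

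Of the 7 genes that were not tested, 6 are forms of complex IV subunits known from other tissues. Cox8b and Cox6a2, the heart and muscle forms, had 4 and 8 reads over all 9 libraries, Cox4i2, best known from lung, had 15, and Cox6b2, a testis form, had 36. Cox7b2 and Cox8c had 0 reads, which allows a level of up to 0.0122 CPM over all libraries, here without TMM scaling (3 counts, counting error only). Ndufs5, an accessory subunit of complex I, also had 0 reads in every library, and 21.7% of its 50-base stretches occur in another gene too, most often in BC002163. Reads that aligned to several places were not counted, and the gene annotation used for counting is not given in the sources used here, so why Ndufs5 had none was not tested. Among the 84 genes 38 shared no 50-base stretch with another gene, 24 shared more than 10% and Atp5l shared 84.8%, most of it with Gm10221. Atp5o shared 45.6%, Uqcrb 43.4% and Ndufs3 39.7%, and the counts of these 4 genes are the most uncertain in this respect.

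No subunit gene passed the test for a difference among the 3 diets (edgeR quasi-likelihood F-test, Benjamini-Hochberg adjusted p below 0.05), where 0.215% of the 13020 tested genes did. The lowest adjusted p was 0.339 for Ndufa9, and 16 of the 77 subunit genes had an unadjusted p below 0.05, against 10.7% of all tested genes. In each pairwise comparison the count of subunit genes that passed was 0 as well. What follows describes sizes, order and overlap.

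Over the 77 tested genes, the median log2 CPM relative to the mean of the 9 libraries was 0.75, -0.09 and 0.10 in the low-iron libraries, -0.14, -0.47 and -0.19 in the sufficient-iron libraries and 0.01, 0.27 and -0.21 in the high-iron libraries. Low-iron library 1 stood far above the rest, sufficient-iron library 6 lowest, and the high-iron range crossed that of both other diets. Library 1 held the highest value of 65 of the 77 genes and library 6 the lowest of 65, where 25.0% of all tested genes were highest in library 1 and 21.2% lowest in library 6. As a share of gene reads without Rn45s and Lars2, the subunit genes took 1.76%, 1.30% and 1.40% on low iron, 1.33%, 1.16% and 1.29% on sufficient iron and 1.44%, 1.59% and 1.36% on high iron. The mean of the library medians was 0.25 ± 0.44 (SD, n = 3) on low iron, -0.27 ± 0.18 on sufficient iron and 0.02 ± 0.24 on high iron.

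**Figure D2:**
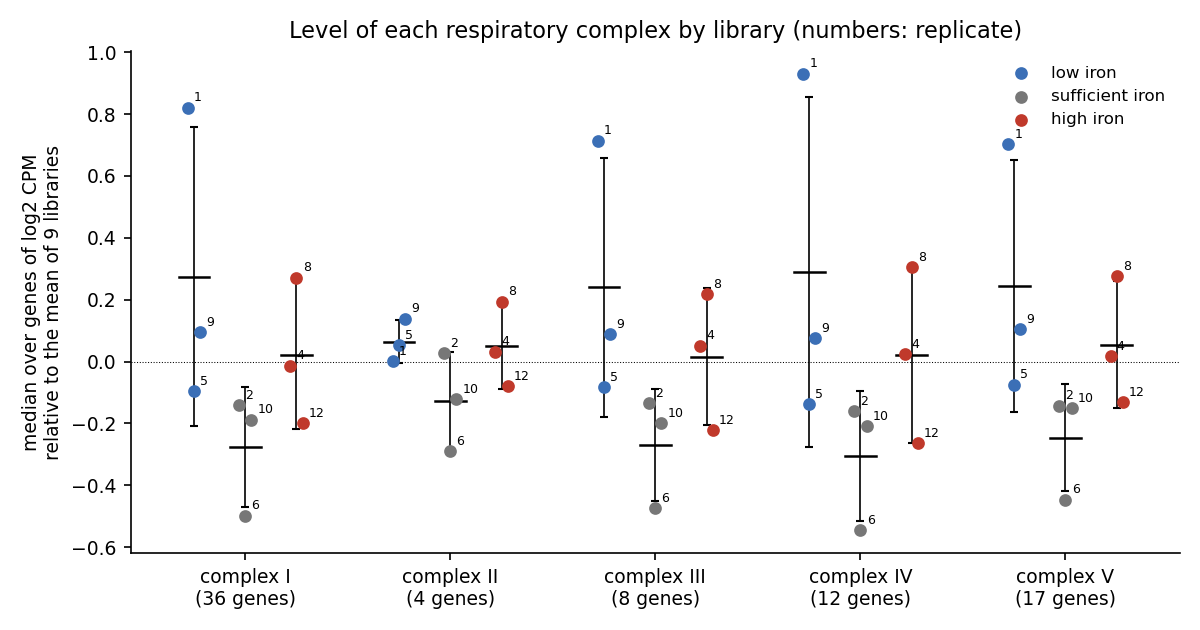
Median over tested genes of log2 CPM relative to the mean of 9 libraries, for each complex, 1 point per library with its number. Bars give the mean and SD of 3 libraries per diet. Low-iron library 1 stands highest in complexes I, III, IV and V but not in complex II, and sufficient-iron library 6 lowest in all 5.

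On low against sufficient iron, 76 of the 77 subunit genes had a positive log2 fold change, with a median of 0.57, against a median of -0.004 and 49.4% positive over all tested genes. The adjusted test called 0 of them, as it called 0% of all tested genes, and the lowest adjusted p was 0.446. At an unadjusted p below 0.05 there were 54 subunit genes, all higher on low iron, where 5.79% of all tested genes were higher and 5.41% lower at that p. In 42 of the 77 (54.5%) every low-iron mouse lay above every sufficient-iron mouse, against 8.81% of all tested genes, and in 0 below, against 7.83%. DESeq2, run as an alternative, called 105 of the 13020 tested genes. Of the 77 subunit genes it called 4, all higher on low iron. They were Sdhb (log2 fold change 0.63, adjusted p 0.0221), Atp5c1 (0.33, 0.0338), Uqcrb (0.61, 0.0433) and Ndufa10, a complex I accessory subunit named after its values were seen (0.32, 0.0475).

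The size of the low-iron difference rested on library 1. Without it the median over the 77 genes was 0.25 in place of 0.57, still with 76 positive, and the genes at an unadjusted p below 0.05 went from 54 to 10. Leaving out sufficient-iron library 6 gave a median of 0.46 and 11 such genes, and leaving out both gave 0.18, 71 positive and 6 such genes. Over all tested genes the medians were -0.019 without library 1, -0.004 without library 6 and -0.007 without both. The shares of all tested genes that were positive or at that p were not taken in these fits, so these counts have no background beside them. Whether the separation of the mice rested on these libraries cannot be read from counts of genes without overlap. Leaving out mice can only keep or raise such counts, for all tested genes as well. Without library 1, both remaining low-iron mice lay above all sufficient-iron mice in 48 of 77 genes (62.3%, against 13.5% of all tested genes), and without libraries 1 and 6 in 49 (63.6%, against 20%).

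On high against sufficient iron, 75 of the 77 genes had a positive log2 fold change, with a median of 0.29 against -0.01 and 48.1% positive over all tested genes. The test called 0 of the 77, where it called 0.215% of all tested genes, and the lowest adjusted p was 0.517, for Cox7a2l. Cox7a2l and Ndufb3 had an unadjusted p below 0.05, which is 2 of 77 where 4.16% of all tested genes were higher and 5.12% lower at that p. In 12 genes (15.6%) every high-iron mouse lay above every sufficient-iron mouse, against 8.99% of all tested genes, and in 0 below, against 8.85%. Without high-iron library 12 that count was 62 of 77 (80.5%, against 17.3% of all tested genes) and the median 0.40. Without high-iron library 8 the count was 13 of 77 (16.9%, against 12.1% of all tested genes) and the median 0.15. Leaving out a mouse can only keep or raise such a count.

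High against low iron gave the smallest difference and no stable sign. The median was -0.24, with 4 of 77 positive against 48.8% of all tested genes, and 0 genes were called where 0.507% of all were. At an unadjusted p below 0.05 stood Cox7a2l, higher on high iron as were 4.22% of all tested genes, and Ndufa9, lower as were 5.44%. In 3 genes (Ndufa9, Ndufs1 and Uqcrc2) every high-iron mouse lay below every low-iron mouse, against 8.15% of all tested genes, and in 1 (Cox7a2l) above, against 7.59%. Without low-iron library 1 the median was 0.03 with 44 of 77 positive, against a median of 0.02 over all tested genes. Each diet serves in more than 1 of these comparisons, so they share mice.

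**Figure D3:**
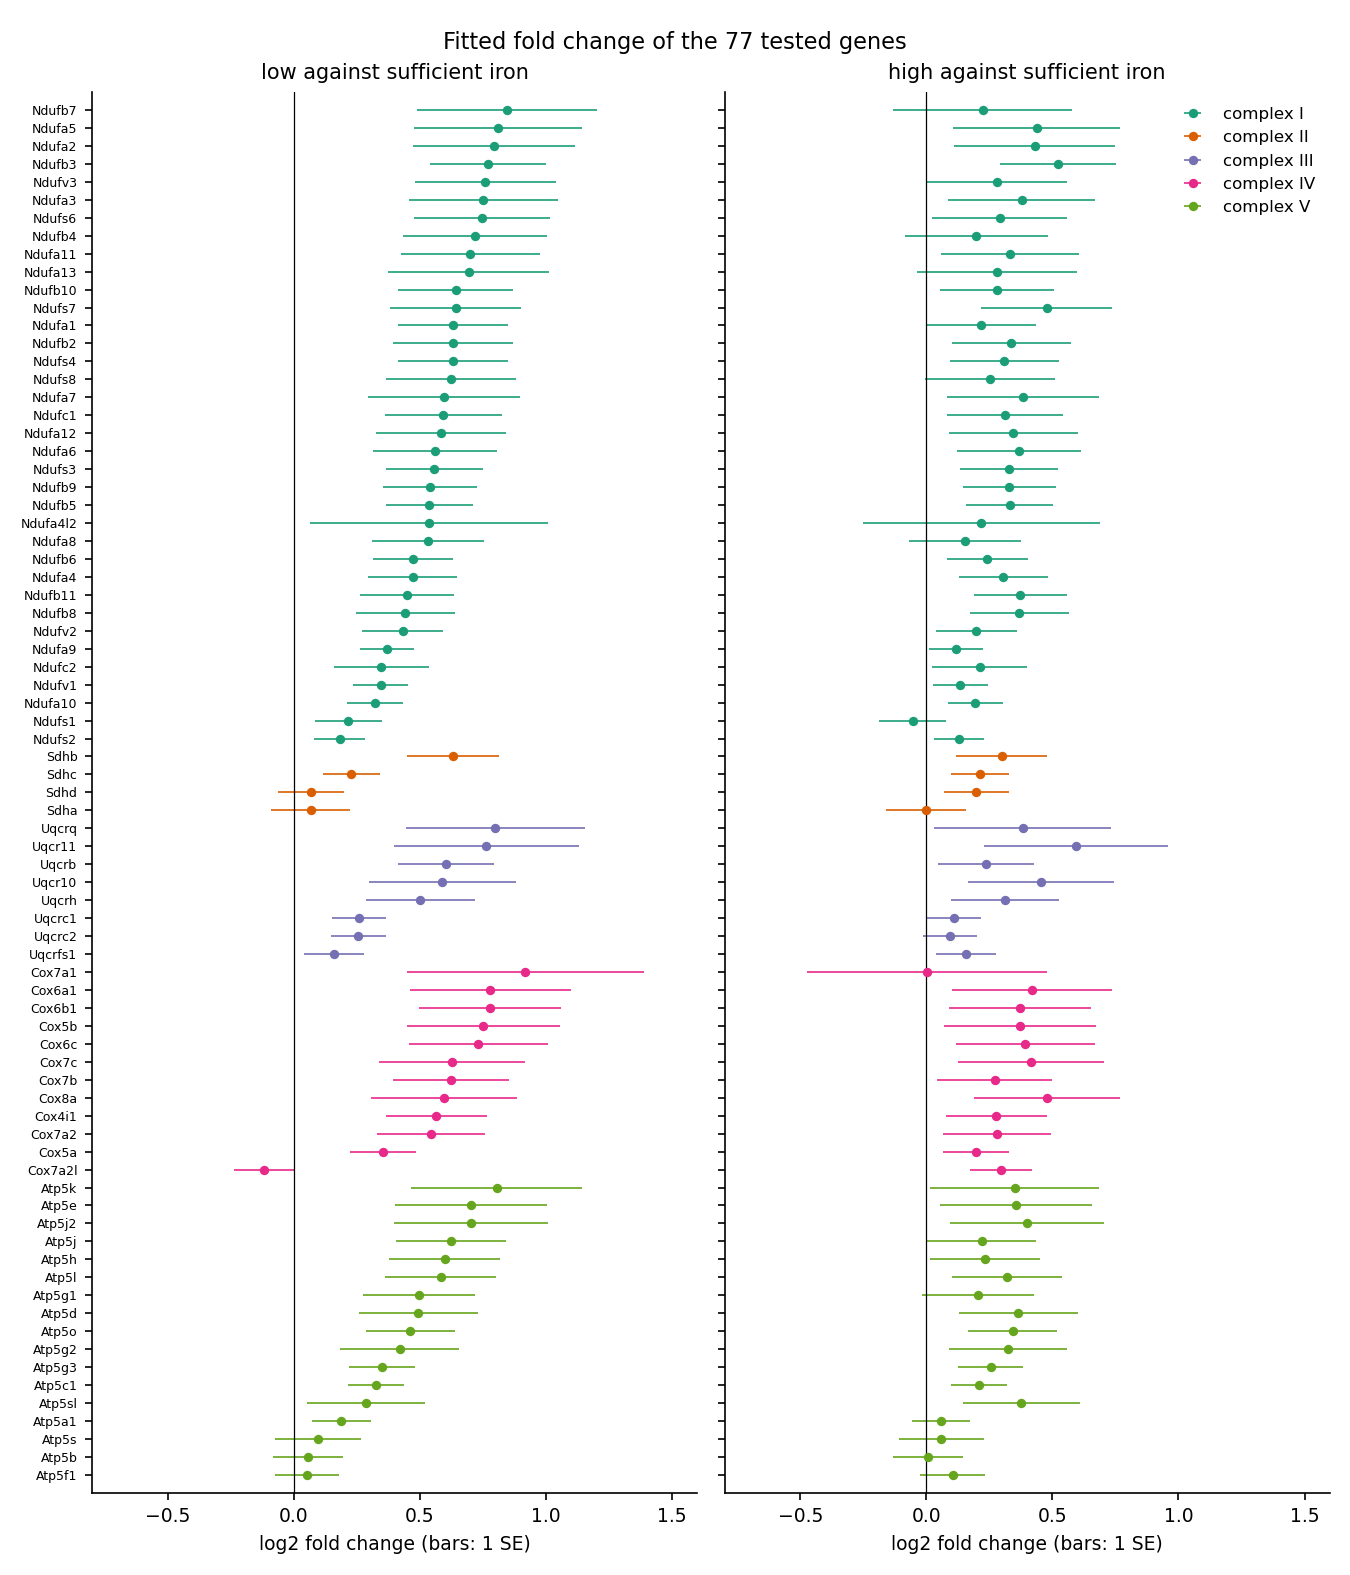
Fitted log2 fold change with 1 standard error for each of the 77 tested genes, by complex and in order of the low-iron difference, for low (left) and high (right) against sufficient iron. Nearly all points lie right of 0 in both panels, with the largest low-iron values in small accessory subunits and values near 0 for Sdha, Sdhd, Atp5b and Atp5f1.

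Complex I, the NADH dehydrogenase, had the most members and followed the whole set. On low against sufficient iron all 36 tested genes had a positive fold change, with a median of 0.59, 30 were at an unadjusted p below 0.05 and 23 showed no overlap between the groups, against 5.79% and 8.81% of all tested genes in that direction. The median on high against sufficient iron was 0.30. The 29 accessory subunits, which surround the catalytic core, had a low-iron median of 0.60 and the 7 nuclear core subunits one of 0.43. Their median transcript lengths were 659 and 1046 bases.

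Ndufa9, an accessory subunit near the ubiquinone site, had the lowest unadjusted p of complex I on low iron. Its values were 94.7, 83.2 and 88.8 CPM on low iron, 74.2, 66.1 and 66 CPM on sufficient iron and 71.9, 81.2 and 70.7 CPM on high iron. All low-iron mice lay above all others, and the high-iron and sufficient-iron mice overlapped. The log2 fold change was 0.37 ± 0.11 (SE) for low against sufficient iron (edgeR unadjusted p 0.00563, adjusted p 0.446) and -0.25 ± 0.11 for high against low iron (adjusted p 0.479).

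Ndufb3, a small subunit of the membrane arm, stood at 71.8, 38.0 and 43.0 CPM on low iron, 32.5, 24.4 and 32.2 CPM on sufficient iron and 42.1, 49.8 and 35.8 CPM on high iron. Every low-iron and every high-iron mouse lay above every sufficient-iron mouse. On the log2 scale the difference was 0.77 ± 0.23 on low iron and 0.52 ± 0.23 on high iron, with edgeR adjusted p 0.446 and 0.535. Ndufb5 and Ndufb11, also of the membrane arm, had high-iron values of 0.33 ± 0.17 and 0.37 ± 0.19, with overlapping groups.

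Among the core subunits, Ndufv1, which binds NADH and carries an iron-sulfur cluster, stood at 105, 103 and 97.8 CPM on low iron, 83.5, 78.8 and 78.8 CPM on sufficient iron and 85.1, 99.8 and 79.7 CPM on high iron. The low-iron mice lay above the sufficient-iron mice with little spread within either diet, and high-iron library 8 reached the low-iron level. Its log2 fold change on low iron was 0.35 ± 0.11 (edgeR adjusted p 0.446), and it was 0.37 at its highest and 0.31 at its lowest when any 1 library was left out.

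Ndufs1, the largest iron-sulfur subunit, differed from the small ones in its order. It stood at 91.5, 103 and 102 CPM on low iron, 87.0, 97.4 and 70.8 CPM on sufficient iron and 78.2, 77.1 and 90.5 CPM on high iron. Low and sufficient iron overlapped, all high-iron mice lay below all low-iron mice, and library 1 was the lowest of the low-iron group. The log2 fold change for high against low iron was -0.27 ± 0.13 (edgeR adjusted p 0.564).

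The remaining iron-sulfur subunits of complex I resembled the whole set. Ndufv2, Ndufs7 and Ndufs8 had log2 fold changes on low against sufficient iron of 0.43 ± 0.16, 0.64 ± 0.26 and 0.62 ± 0.26, and in each of them the low-iron mice lay above the sufficient-iron mice. Ndufs7 stood at 78.2, 38.4 and 41.7 CPM on low iron against 35.5, 28.7 and 36.8 CPM on sufficient iron and 42.6, 59.2 and 38.5 CPM on high iron. Its high-iron mice also lay above the sufficient-iron mice, by 0.48 ± 0.26 (edgeR adjusted p 0.600). Ndufa4, the most abundant gene of complex I per length, stood at 318, 207 and 244 CPM on low iron, 202, 160 and 193 CPM on sufficient iron and 228, 264 and 193 CPM on high iron, and only the low-iron group was clear of the sufficient-iron group.

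Complex II, succinate dehydrogenase, is also an enzyme of the citric acid cycle, and its 4 genes differed in size and order. They had a median of 0.15 on low and 0.21 on high against sufficient iron. Sdhb, the iron-sulfur subunit, stood at 241, 157 and 169 CPM on low iron, 134, 103 and 129 CPM on sufficient iron and 139, 174 and 137 CPM on high iron. Both the low-iron and the high-iron mice lay above all sufficient-iron mice. For low iron this came to a log2 fold change of 0.63 ± 0.18 (edgeR unadjusted p 0.00545, adjusted p 0.446), and for high iron to 0.30 ± 0.18 (adjusted p 0.623). Left-out libraries moved the low-iron value between 0.41 and 0.75.

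Sdha, the flavoprotein that oxidises succinate, stood at 346, 537 and 499.6 CPM on low iron, 468, 442 and 410.1 CPM on sufficient iron and 444, 415 and 459.7 CPM on high iron. Here library 1 was the lowest of all 9 libraries, while libraries 5 and 9 were the highest, and the groups overlapped. Its log2 fold change on low iron was 0.07 ± 0.16. Sdhc and Sdhd, the anchors that hold a haem and the ubiquinone site, had low-iron values of 0.23 ± 0.11 and 0.07 ± 0.13, with the low-iron mice clear of the sufficient-iron mice in Sdhc only.

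Complex III passes electrons to cytochrome c, and all 8 of its genes were positive in both comparisons with sufficient iron, with medians of 0.55 on low and 0.27 on high iron. On low iron, 5 of the 8 had an unadjusted p below 0.05 and 3 showed no overlap, against 5.79% and 8.81% of all tested genes. Uqcrb, a small subunit near the ubiquinone site, stood at 183, 106 and 128 CPM on low iron, 99.4, 80.4 and 95.1 CPM on sufficient iron and 108, 122 and 93.8 CPM on high iron. The low-iron mice lay above the sufficient-iron mice, with library 1 well above libraries 5 and 9. The log2 fold change was 0.60 ± 0.19 (edgeR adjusted p 0.446), and 43.4% of the 50-base stretches of Uqcrb occur in another gene.

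The core proteins Uqcrc1 and Uqcrc2 had smaller but tighter differences. Uqcrc1 stood at 188, 173 and 181 CPM on low iron, 160, 144 and 148 CPM on sufficient iron and 148, 177 and 163 CPM on high iron, and its log2 fold change was 0.26 ± 0.11. Uqcrc2 stood at 197, 218 and 224 CPM on low iron, 177, 194 and 164 CPM on sufficient iron and 183, 194 and 193 CPM on high iron, and its log2 fold change was also 0.26 ± 0.11. In both genes the low-iron mice lay above the sufficient-iron mice, and in Uqcrc2 library 1 was the lowest of the 3. Uqcrfs1, the Rieske iron-sulfur protein, stood at 140, 172 and 165 CPM on low iron against 158, 132 and 137 CPM on sufficient iron and 158, 164 and 154 CPM on high iron, with overlapping groups and a low-iron value of 0.16 ± 0.12. On high iron the largest value of the complex was that of Uqcr11, 0.59 ± 0.37, with library 8 at 162 CPM, library 4 at 114 and library 12 at 90.8.

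Complex IV, cytochrome c oxidase, had the highest low-iron median, 0.63, and a high-iron median of 0.33 over 12 tested genes. On low iron 8 of the 12 had an unadjusted p below 0.05, and the same number showed no overlap with sufficient iron, where 5.79% and 8.81% of all tested genes did. Cox4i1, the general form of subunit IV, stood at 358, 213 and 245 CPM on low iron, 198, 165 and 187 CPM on sufficient iron and 210.1, 271 and 186 CPM on high iron. The low-iron mice lay above the sufficient-iron mice, and the high-iron mice overlapped with both. Its log2 fold change was 0.57 ± 0.20 (edgeR adjusted p 0.446), against 0.78 ± 0.28 for Cox6b1 and 0.36 ± 0.13 for Cox5a.

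Cox6a1 spread widely within the low-iron diet. It stood at 446, 186 and 204 CPM on low iron, 181, 129 and 176 CPM on sufficient iron and 199, 279.7 and 171 CPM on high iron. Library 1 stood far above every other library, and libraries 5 and 9 lay just above the sufficient-iron range. Its log2 fold change of 0.78 ± 0.32 was 0.25 without library 1.

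Cox7a2l, a factor that joins complexes III and IV into supercomplexes, had an order of its own. It stood at 63.0, 78.1 and 74.4 CPM on low iron, 79.7, 69.9 and 84.1 CPM on sufficient iron and 104, 94.9 and 88.3 CPM on high iron. All high-iron mice lay above all others, and low and sufficient iron overlapped. The log2 fold change was 0.41 ± 0.12 for high against low iron (edgeR unadjusted p 0.00678, adjusted p 0.216) and 0.30 ± 0.12 for high against sufficient iron (adjusted p 0.517). It was the only 1 of the 77 genes with a negative value on low against sufficient iron, -0.12 ± 0.12. Over the alternatives the high against low value ran from 0.33 to 0.48 and its adjusted p from 0.0586 to 0.580, and 17.8% of its 50-base stretches occur in another gene.

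Cox7a1, the muscle form of subunit VIIa, was barely present, at 3.12, 0.768 and 0.987 CPM on low iron against 0.717 to 0.921 CPM on sufficient iron and 0.641 to 0.912 CPM on high iron. Only library 1 stood apart, and the summed skeletal muscle markers were at 0.468 CPM in that library and at most 0.658 CPM in any. Ndufa4l2, a hypoxia-responsive relative of Ndufa4, was highest in the same library at 1.87 CPM and lay between 0.474 and 1.12 CPM in the other 8.

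Complex V, the ATP synthase, had 17 tested genes, all positive in both comparisons with sufficient iron, with medians of 0.46 on low and 0.26 on high iron. On low iron 10 had an unadjusted p below 0.05 and 6 showed no overlap, against 5.79% and 8.81% of all tested genes. The 5 genes of the catalytic F1 head had a low-iron median of 0.33 and ran from 0.06 for Atp5b to 0.70 for Atp5e, the epsilon subunit. Atp5c1, the gamma subunit that forms its rotating shaft, stood at 238, 208 and 217 CPM on low iron, 187, 166 and 175 CPM on sufficient iron and 202, 220 and 187 CPM on high iron. Both other diets lay above sufficient iron in every mouse. On high iron the gap was very small, with library 12 at 186.95 CPM and sufficient-iron library 2 at 186.64 CPM. Fold changes on the log2 scale were 0.33 ± 0.11 on low iron and 0.21 ± 0.11 on high iron (edgeR adjusted p 0.446 and 0.591).

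Atp5b, the beta subunit that makes ATP, stood at 690.3, 954 and 957 CPM on low iron, 832, 874 and 797 CPM on sufficient iron and 827, 843 and 844 CPM on high iron. Library 1 was the lowest of all libraries here and libraries 5 and 9 the highest, with a log2 fold change of 0.06 ± 0.14. Atp5a1, the alpha subunit, had the same order on low iron, 649, 793 and 818 CPM, against 645 to 672 CPM on sufficient iron and 677 to 699.8 CPM on high iron. Outside the head the subunit genes ran from 0.05 for Atp5f1, subunit b of the peripheral stalk, to 0.80 for Atp5k, subunit e of the membrane part. Atp5j (coupling factor 6) and Atp5h (subunit d), also of the peripheral stalk, were at 0.62 ± 0.22 and 0.60 ± 0.22 on low iron, with the low-iron mice above the sufficient-iron mice. For Atp5j the values were 251, 137 and 167 CPM on low iron, 129, 108 and 123 CPM on sufficient iron and 136, 169 and 114 CPM on high iron.

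The 3 genes for the c subunit encode the same mature protein, and their levels differed. Atp5g3 stood at 414, 355 and 401 CPM on low iron, 333, 274 and 311 CPM on sufficient iron and 369, 406 and 320.4 CPM on high iron, and its low-iron mice lay above its sufficient-iron mice. Its log2 fold change was 0.35 ± 0.13 on low and 0.26 ± 0.13 on high iron, with edgeR adjusted p 0.446 and 0.579. Atp5g1 and Atp5g2 had low-iron values of 0.50 ± 0.22 and 0.42 ± 0.24 with overlapping groups, and 11.1% and 38.3% of their 50-base stretches occur in other genes. Atp5s and Atp5sl match the name but are not subunits of the enzyme, and had low-iron values of 0.10 ± 0.17 and 0.29 ± 0.23. Without them, Cox7a2l, Ndufa4 and Ndufa4l2, the median over the set was 0.59 on low and 0.29 on high iron.

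Across complexes, the 7 iron-sulfur subunits (Ndufs1, Ndufs7, Ndufs8, Ndufv1, Ndufv2, Sdhb and Uqcrfs1) had medians of 0.43 on low and 0.20 on high against sufficient iron, below the 0.57 and 0.29 of the whole set. All 7 were positive on low iron, and 5 of them (71.4%) showed no overlap between the groups, against 8.81% of all tested genes. On high iron 6 of 7 were positive, and 2 (28.6%) showed no overlap, against 8.99% of all tested genes. Their transcripts had a median length of 1142 bases, against 742 bases over the whole set. The 25 subunit genes of any kind above 1000 bases had medians of 0.26 on low and 0.19 on high iron.

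The size of a gene's difference went with the length of its transcript. The subunit transcripts had a median length of 742 bases, against 2664 bases over all tested genes. By complex the median length was 718 bases in I, 2065.5 in II, 955 in III, 631.5 in IV and 838 in V. The medians given by complex and by list were not adjusted for length. The 52 subunit genes of at most 1000 bases had a median log2 fold change of 0.60 on low and 0.33 on high against sufficient iron, and the 25 longer ones 0.26 and 0.19. Over the 1110 tested genes of all kinds of at most 1000 bases, the medians were 0.30 and 0.21. Spearman's rho between fold change and length was -0.634 on low iron and -0.530 on high iron over the 77 subunit genes, and -0.384 and -0.295 over 12943 tested genes. These are descriptions over genes that share the same libraries.

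**Figure D4:**
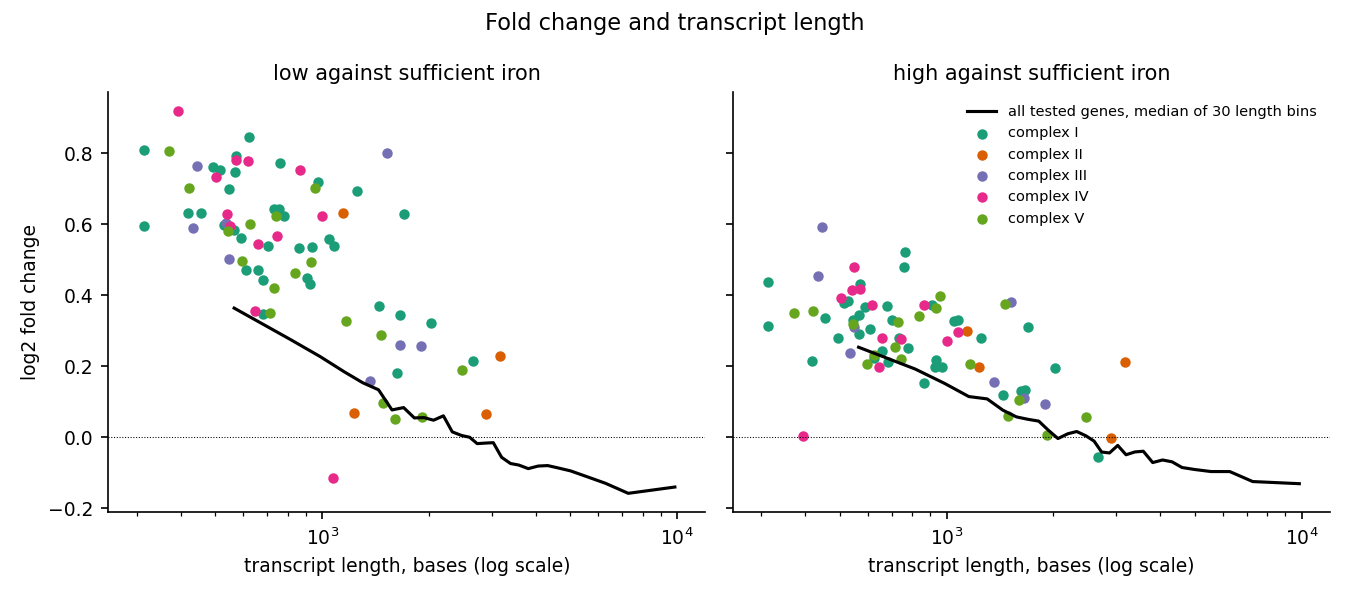
Log2 fold change of each tested subunit gene against transcript length (log axis), for low (left) and high (right) against sufficient iron, with the median of all tested genes in 30 length bins as a line. Short transcripts have the larger values in both panels, in the subunit genes and in all genes, and on low iron most points lie above the line.

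The same trend separated the libraries. Spearman's rho between a gene's relative log2 CPM and its transcript length was -0.363, 0.131 and -0.0958 in the low-iron libraries, 0.185, 0.328 and 0.191 in the sufficient-iron libraries and 0.0247, -0.348 and 0.201 in the high-iron libraries. Libraries 1 and 8, where the subunit genes were highest, held more of the short transcripts, and library 6, where they were lowest, held fewer. Within library 1 the 52 short subunit genes stood at a median of 0.84 and the 25 longer ones at 0.20, and within library 6 at -0.51 and -0.22. With the length trend of each library removed, the median over the 77 genes was 0.23 on low iron (73 positive) and 0.08 on high iron (66 positive). Over all tested genes the medians of that fit were 0.005 and -0.008. An unadjusted p below 0.05 was found in 25 and 1 of the 77 genes. The shares of all tested genes that were positive or at that p were not taken in that fit, so these counts have no background beside them. The trend is shared by genes of every kind, and its part in the differences between the diets was not tested beyond this adjustment.

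**Figure D5:**
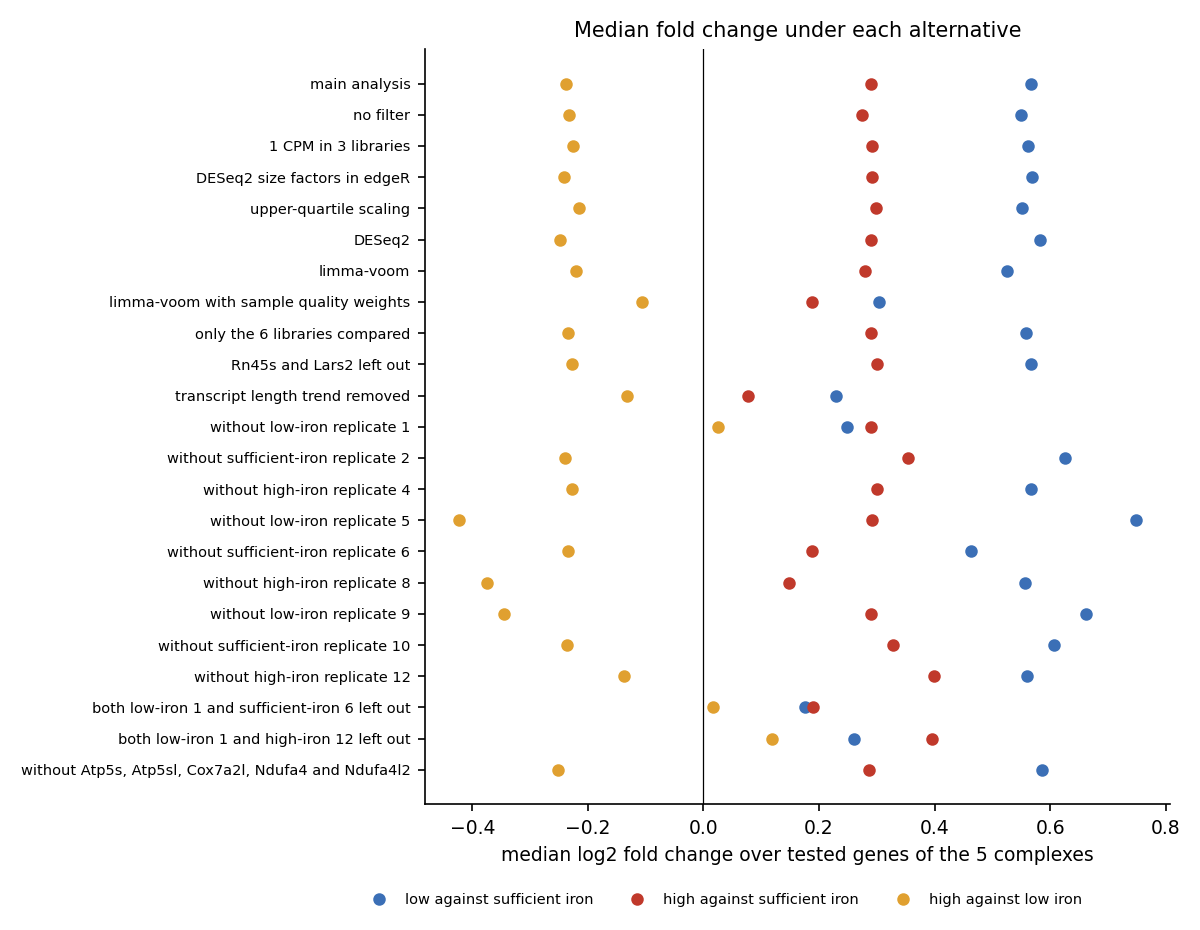
Median log2 fold change over the tested subunit genes under each way of processing the data, 1 point per comparison. Low (blue) and high (red) against sufficient iron stay right of 0 throughout, with low iron between 0.18 and 0.75 and high iron between 0.08 and 0.40, and high against low iron (yellow) crosses 0 wherever low-iron library 1 is left out.

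Markers of other cell types were measured in the same libraries. Of 10 tested Kupffer cell and macrophage markers, all 10 had a negative log2 fold change on low against sufficient iron, with a median of -0.72, and their summed level was 119.8, 257 and 279.5 CPM on low iron, 442, 338 and 274 CPM on sufficient iron and 235 to 295 CPM on high iron. All 7 hepatocyte markers were positive on low iron, with a median of 0.33. On high iron all 10 Kupffer markers were negative, with a median of -0.48, and 3 of 7 hepatocyte markers positive. On low iron all 6 stellate cell markers (median -0.35), all 6 endothelial markers (-0.29) and 4 of 5 cholangiocyte markers (-0.54) were negative too, while lymphocyte markers were mixed (3 of 7 positive). Their summed levels were 171 to 234 CPM on low and 191 to 372 CPM on sufficient iron for stellate cells, 115 to 193 and 172 to 212 CPM for endothelium, and 27.9 to 36.5 and 40.1 to 72.6 CPM for cholangiocytes. Of 6 listed adipocyte markers 3 were tested, with medians of 0.61 on low and 1.71 on high against sufficient iron. Summed levels of the list were 13.3 to 15.1 CPM on low iron, 6.78 to 12.0 CPM on sufficient iron and 7.96 to 21.9 CPM on high iron. In these lists the adjusted test called only Alas2, the erythroid enzyme that starts haem synthesis, lower on high than on sufficient iron by a log2 fold change of -1.06 ± 0.17 (edgeR adjusted p 0.0479) and than on low iron by -1.58 ± 0.18 (adjusted p 0.0114). Of the 8 erythroid markers listed, Alas2 was the only 1 tested, so no other gene of that list stands beside it. The part of these differences in the values of the subunit genes was not tested.

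Genes that work with the complexes had smaller medians on low iron than the subunits, and none of the lists below held a gene past the adjusted threshold. Their transcripts were also longer, with medians of 1224 to 2735.5 bases over the assembly factor lists, against 742 bases for the subunits. The part of length in these contrasts was not tested. Of the assembly factors, which build the complexes without staying in them, 13 tested for complex I had a median of 0.17 on low and 0.12 on high against sufficient iron, and 17 for complex IV 0.25 and 0.16. Ndufaf6, needed early in complex I assembly, had the lowest unadjusted p among them, with a low-iron log2 fold change of 0.72 ± 0.15 (edgeR adjusted p 0.446), and Ndufaf1, another such factor, was at 0.46 ± 0.13. For complex II 2 factors were tested, with medians of 0.28 and 0.23, for complex III 3, with 0.06 and 0.07, and for complex V 4, with 0.07 and 0.19. Every low-iron mouse lay above every sufficient-iron mouse in 7 of 13 factors for complex I (53.8%) and 4 of 17 for complex IV (23.5%). For complexes II, III and V this count was 0. Among the subunits the share was 54.5%, and among all tested genes 8.81%. Cyc1, the cytochrome c1 of complex III that the name rule misses, was at 0.25 ± 0.12 on low and 0.23 ± 0.12 on high iron, and Etfb, which feeds electrons from fatty acid oxidation to ubiquinone, was at 0.78 ± 0.25 and 0.31 ± 0.25.

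The 13 citric acid cycle genes had medians of 0.11 on low and 0.04 on high iron, and a median transcript length of 2518 bases. Fh1, fumarase, had the lowest unadjusted p of the list on low iron at 0.34 ± 0.12, and it was at -0.48 ± 0.12 for high against low iron (edgeR adjusted p 0.146). Regulators of mitochondrial gene expression did not share a direction, with 6 of 13 positive on low and 8 of 13 on high iron. Pprc1, a PGC-1 related coactivator, was at -0.45 ± 0.16 on low and -0.51 ± 0.16 on high iron (edgeR adjusted p 0.446 and 0.380).

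Genes for ribosomes were set beside the subunits. The 76 genes of the mitochondrial ribosome had medians of 0.33 on low and 0.23 on high against sufficient iron, and on low iron 38 of them (50.0%) had no overlap, all higher, against 8.81% of all tested genes. The 80 tested genes of the cytosolic ribosome had medians of 0.33 on low and 0.49 on high iron. For them it was the high-iron mice that lay clear of sufficient iron, in 54 of 80 (67.5%), and the low-iron mice in 3 (3.75%), against 12 of 77 and 42 of 77 for the respiratory subunits and 8.99% and 8.81% of all tested genes. The median length of the tested transcripts was 814.5 bases for the cytosolic ribosome, 1224.5 for the mitochondrial ribosome and 742 for the subunits. Whether the lists differ from each other was not tested.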

How the data were processed

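Liver RNA was isolated with RNeasy columns, made into libraries with the Illumina TruSeq RNA kit and sequenced on an Illumina HiSeq, per the labels' protocols. The deposited values are raw read counts per gene symbol, 1 table per library. FastQC and 2 genome builds, mm9 and mm10, appear in the submitters' processing notes. Which aligner and counter were used, and with what strand setting, is not given in the sources used here. For each library the 5 category entries (reads outside genes made up 13.4% to 25.9% of uniquely aligned reads, ambiguous reads 0.477% to 0.917%) stayed out of library sizes and tests.

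The counts were fitted with edgeR 4.0.16 in R 4.3.3, with filterByExpr (13020 genes kept), TMM scaling, a robust quasi-likelihood model of diet fitted to all 9 libraries together, and Benjamini-Hochberg adjustment over all tested genes at 0.05. SE is the size of the log2 fold change over the root of its F statistic. Log2 CPM used a prior count of 2. The square root of the common dispersion was 0.177. The p-values rest on the spread between mice within a diet, with 3 mice per diet. That spread was estimated over all 9 libraries and drawn towards that of other genes. Transcript lengths came from GENCODE M21 (the shortest coding transcript with a RefSeq match) and covered 99.4% of tested genes and all 77 tested subunit genes.

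Named are the iron-sulfur and c-subunit genes, tissue forms and untested genes whatever their result, per complex and comparison the 3 lowest p-values (2 for complex II), the most abundant gene per length, and up to 4 genes of other lists by lowest p. The members and lists were chosen with earlier results of these data known. Alternatives were other filters, scalings, DESeq2 1.42.0, limma-voom (limma 3.58.1) with and without quality weights, the 6 compared libraries alone, Rn45s and Lars2 left out, the length trend removed (loess, span 0.5) and libraries left out. The pair low-iron 1 and high-iron 12 was added after seeing the data. The model was tested on simulated data first.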

Additional observations from a re-analysis of the deposited data

How the results depend on the processing

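With 3 mice per diet, edgeR and limma-voom called 0 subunit genes in every alternative run. Only DESeq2 called any (4 of 77 on low against sufficient iron, where it called 105 of all 13020 tested genes). Depth does not limit the abundant subunits, but Cox7a1 and Ndufa4l2 had 240 and 204 reads in all. No paired analysis was possible because the libraries of different diets share no replicate number and no label pairs their mice. Of 74 fold changes of named genes, 56 kept their direction and their side of the threshold under all alternatives.

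The median over the subunit genes for low against sufficient iron, 0.57, was 0.23 with the length trend removed, 0.25 without low-iron library 1 and 0.18 without low-iron 1 and sufficient-iron 6. It ran from 0.25 to 0.75 over single libraries left out. For high against sufficient iron the range was 0.15 to 0.40. For high against low iron it was -0.42 to 0.026, with 0.026 without low-iron 1, 0.017 without low-iron 1 and sufficient-iron 6, and 0.12 without low-iron 1 and high-iron 12, all opposite in sign to the -0.24 of the full fit. The cause was not tested.

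Some fold changes turned sign. On high against sufficient iron, Cox7a1 (0.004) became -0.0034 with no filter, -0.001 with the 1 CPM filter, -0.0003 with DESeq2, -0.33 without the length trend and -0.13 to 0.14 over left-out libraries. Ndufs1 (-0.05) became 0.0045 with quality weights, 0.0539 without low-iron 1 and sufficient-iron 6 and ran from -0.18 to 0.0538 over single libraries left out. Removing the length trend gave -0.027 for Atp5g1, -0.023 for Atp5s and -0.014 for Cox5a. Atp5s ran from -0.048 to 0.14 and Ndufa4l2 from -0.0156 to 0.66 over left-out libraries, and Ndufa4l2 was -0.019 without low-iron 1 and high-iron 12. On low against sufficient iron, removing the trend gave -0.080 for Sdhd and -0.016 for Atp5s, and leaving out low-iron 1 and sufficient-iron 6 gave -0.0105 for Atp5g2 (0.42 in the full fit), -0.15 for Ndufa4l2 (0.54), -0.006 for Uqcr11 (0.76) and -0.072 for Atp5sl (0.29). Over left-out libraries Atp5s ran from -0.0106 to 0.16 and Sdhd from -0.021 to 0.15. On high against low iron, Atp5k (-0.45) was 0.10 without low-iron 1, 0.089 without low-iron 1 and sufficient-iron 6 and 0.27 without low-iron 1 and high-iron 12, where Cox7b was 0.0845 (-0.35 in the full fit) and Atp5h 0.031 (-0.37). Atp5k ran from -0.70 to 0.10 over left-out libraries.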
